A study of Homo sapiens with 30 samples.

Results

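The genes described here are long non-coding RNA genes of 22Rv1 cells, a human cell line of castration-resistant prostate cancer. A gene belonged to the set when it had a non-coding RefSeq transcript and a symbol starting with LINC or SNHG, ending in -AS1, or equal to GAS5, MALAT1 or NEAT1. It also needed a mean deposited CPM (reads scaled to a common library total) of at least 2 over the 30 libraries. That gave 53 genes, out of 436 with such a name and a read, and out of 17184 genes with a read in all. By name they were 8 snoRNA host genes, 35 antisense-named genes (-AS1) and 10 intergenic-named genes (LINC). MALAT1 and NEAT1 were not analysed here. The mean CPM chose the members and is only a description. LINC01399 at 2.23, PPP1R26-AS1 at 2.11 and SAPCD1-AS1 at 2.06 lay just inside the limit, and ELOA-AS1 at 2.00, LINC02012 at 1.98 and HSD17B1-AS1 at 1.98 just outside. All 53 passed the filter on low counts. Only 15 had 20 or more reads in every library, and 34 had a mean of at least 2 in all 10 groups.

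Long non-coding RNAs are transcripts with no long open reading frame, mostly made by RNA polymerase II, spliced and polyadenylated like messenger RNA. The SNHG genes and GAS5 carry small nucleolar RNAs (snoRNAs) in their introns. These guide chemical modification of ribosomal RNA, while the spliced host RNA goes to the cytoplasm, where many hosts are short-lived because translation of a short reading frame exposes them to nonsense-mediated decay. Several hosts have promoters with a run of pyrimidines at the start site, the 5′ terminal oligopyrimidine motif of ribosomal protein genes. An antisense-named gene lies on the strand opposite a coding gene and is often transcribed away from a shared promoter. GAS5 is known as an RNA that accumulates when growth is arrested.

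The study was a SLAM-seq experiment on CDK9, the kinase of P-TEFb that releases paused RNA polymerase II. Cells took up 4-thiouridine (s4U), which is read as T-to-C conversion in RNA made after its addition. All groups had 800 µM s4U, and the 0 h libraries were collected after a pulse of 30 min. The other groups then had fresh medium, again with s4U, for 2, 4 or 8 h, with DMSO as the vehicle or with a CDK9 inhibitor, KI-ARv-03 at 4 µM or KB742 at 1.2 µM. Each of the 10 groups has 3 libraries. The labels do not say that these came from separate cultures, so p-values measure only the spread between libraries, which may be technical. For most samples titled 4 h another label field names another time, and the title was followed. The treatment label of KB742 can also be read as another dose than the protocol's, and the protocol was followed. The doses differ, so each compound is set beside DMSO and the compounds are not compared with each other. No library at 2, 4 or 8 h lacks the medium change or s4U, so the change from 0 h to DMSO cannot be told apart from an effect of s4U or of fresh medium.

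Promoters are shown for 5 hosts, because their calls in level with DMSO differed under the main scaling. SNHG5, SNHG19 and GAS5 were called higher at 8 h, SNHG12 lower at 2 h and 4 h but not at 8 h, and SNHG7 was not called. These calls depend on the scaling: with the deposited one, no host was called higher at 8 h, and SNHG12 and SNHG7 were called lower. Each stretch runs from 50 bases before to 50 after the start site on the minus strand, from RefSeq on GRCh38.p14 (the deposited table used hg19). The start site is that of the first entry of a gene in the promoter table. It need not be the start of the transcript analysed here. Capitals mark TATAA on the given strand between 45 and 15 bases before the start, and a stretch of 6 or more C or T, counted from a C within 10 bases of the start, which can be part of a longer run.
SNHG5: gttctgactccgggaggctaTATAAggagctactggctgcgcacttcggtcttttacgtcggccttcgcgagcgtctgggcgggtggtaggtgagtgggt
SNHG19: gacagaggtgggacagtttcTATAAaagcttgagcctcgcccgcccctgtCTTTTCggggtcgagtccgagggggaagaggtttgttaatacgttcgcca
SNHG12: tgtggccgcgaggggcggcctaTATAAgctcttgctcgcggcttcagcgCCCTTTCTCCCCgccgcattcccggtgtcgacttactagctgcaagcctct
SNHG7: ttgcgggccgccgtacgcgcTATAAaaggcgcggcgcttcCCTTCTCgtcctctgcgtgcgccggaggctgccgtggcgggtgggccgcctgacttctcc
GAS5: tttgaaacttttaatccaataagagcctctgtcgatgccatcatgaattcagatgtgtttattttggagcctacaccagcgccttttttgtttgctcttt

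The stretches are chr6:85678684-85678783 (SNHG5), chr16:2155309-2155408 (SNHG19), chr1:28581824-28581923 (SNHG12), chr9:136728135-136728234 (SNHG7) and chr1:173868996-173869095 (GAS5). TATAA stood in this window in 4 of the 7 hosts with an entry in the RefSeq promoter table, against 4.42% of all 27305 promoters of the table (5.36% when the reverse strand, TTATA, is counted too). Of the 39 members with an entry, 4 had it, and all 4 were hosts. The pyrimidine stretch stood in 3 of 7 hosts and 11 of 39 members, against 19.9% of all promoters. Counted beyond that window, the whole run of C or T was 12 letters in SNHG12, 11 in SNHG7 and 7 in SNHG19. Both features stood in SNHG19, called higher at 8 h, and in SNHG12, called lower at 2 h and 4 h, and GAS5, SNHG1 and SNHG10 had neither. That says only that these letters are not in these windows. Other start sites of these genes were not searched, so it does not show that GAS5 lacks the motif.

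The libraries held 3376884 to 9265131 reads, and the members took 0.231% to 0.404% of the reads assigned to genes. All 9 luminal prostate markers were detected, with a summed level of 485 to 759 CPM per library, and basal, endothelial and immune markers summed to at most 0.516, 0.166 and 1.83. Stromal markers summed to 0.201 to 13.0 and neuroendocrine markers to 7.50 to 110. The libraries that stand apart from their groups were 0 h replicate 3, KB742 2 h replicate 2 and KI-ARv-03 4 h replicate 1, and values without them are given where they matter. The former 2 correlated in level with their groups at 0.893 and 0.883, under a limit of 0.9. KI-ARv-03 4 h replicate 1 did not stand apart in level (0.965), but in mean conversion, at 1.18% beside 0.38% and 0.42%. KI-ARv-03 8 h replicate 2, at 0.904, was kept. Of the non-coding RefSeq transcripts on the plus strand, 0.458% had a row in the table, against 56.2% on the minus strand. All 51 members with a known strand were on the minus strand. The set is therefore mostly the minus-strand part of the non-coding genes. Whether counting used strand is not stated, so reads of an antisense-named gene and of an overlapping partner cannot be told apart.

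Which long non-coding RNAs changed in level while DMSO cells were kept in s4U? By 8 h the most abundant snoRNA hosts had risen about 3-fold, several antisense-named genes had risen from low levels, and LINC01234 had fallen. LINC01004 was lower too, but it was a member only through its 0 h libraries. Levels are CPM rescaled for composition (TMM), relative to the other RNA of a library, so a rise cannot be told apart from a smaller loss than that of other RNA, nor more cells from more RNA per cell. A gene was called at a limma Benjamini-Hochberg adjusted p under 0.05 over 11430 genes. At 8 h with DMSO, 19 members were higher and 4 lower than at 0 h, 43.4% of the set, against 49.9% of all genes (21.4% higher and 28.5% lower). At 4 h 9 were higher and 3 lower (22.6% of all genes called, 7.31% higher and 15.3% lower). At 2 h none was higher and 2 were lower (4.42% of all genes called, 0.114% higher and 4.30% lower), with 6 members at an unadjusted p under 0.05, and edgeR also called 0 higher. Without overlap of the libraries, 47.2% of members lay above 0 h at 8 h and 9.43% below, against 27% and 31.3% of all genes. At 4 h it was 35.8% and 7.55%, against 20.1% and 22.2%, and at 2 h 9.43% either way, against 7.14% and 14.7%.

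SNHG5 stood at 215, 286 and 128 CPM in the 0 h libraries, at 395, 387 and 381 after 4 h with DMSO and at 690, 749 and 514 after 8 h. All DMSO 8 h libraries lay above all 0 h libraries. The log2 difference at 8 h was 1.69 ± 0.33 (SE, n = 3 against 3; limma adjusted p = 0.000172). GAS5 rose in the same way, from 163, 191 and 107 to 227, 278 and 276 at 4 h and 433, 490 and 347 at 8 h, without overlap between 0 h and either time. Its log2 difference at 8 h was 1.48 ± 0.21 (adjusted p = 3.91e-06), the smallest p of any member in that comparison. SNHG6 went from 101, 123 and 49.2 to 295, 392 and 213, a difference of 1.76 ± 0.43 (adjusted p = 0.00154). At 0 h, replicate 3 was the lowest library for SNHG5, GAS5 and SNHG6. Without it, GAS5 was no longer called at 4 h (0.50, adjusted p = 0.114, against 0.79 and 0.00835 with all libraries), and neither was SNHG5 (0.59, adjusted p = 0.272, against 0.96 and 0.0378). The SNHG5 call at 4 h was also lost without 0 h replicate 1 (adjusted p = 0.0636) or any of the DMSO 4 h libraries (adjusted p = 0.0807 to 0.122). The 8 h calls of SNHG5, GAS5 and SNHG6 held without any single library.

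**Figure D1:**
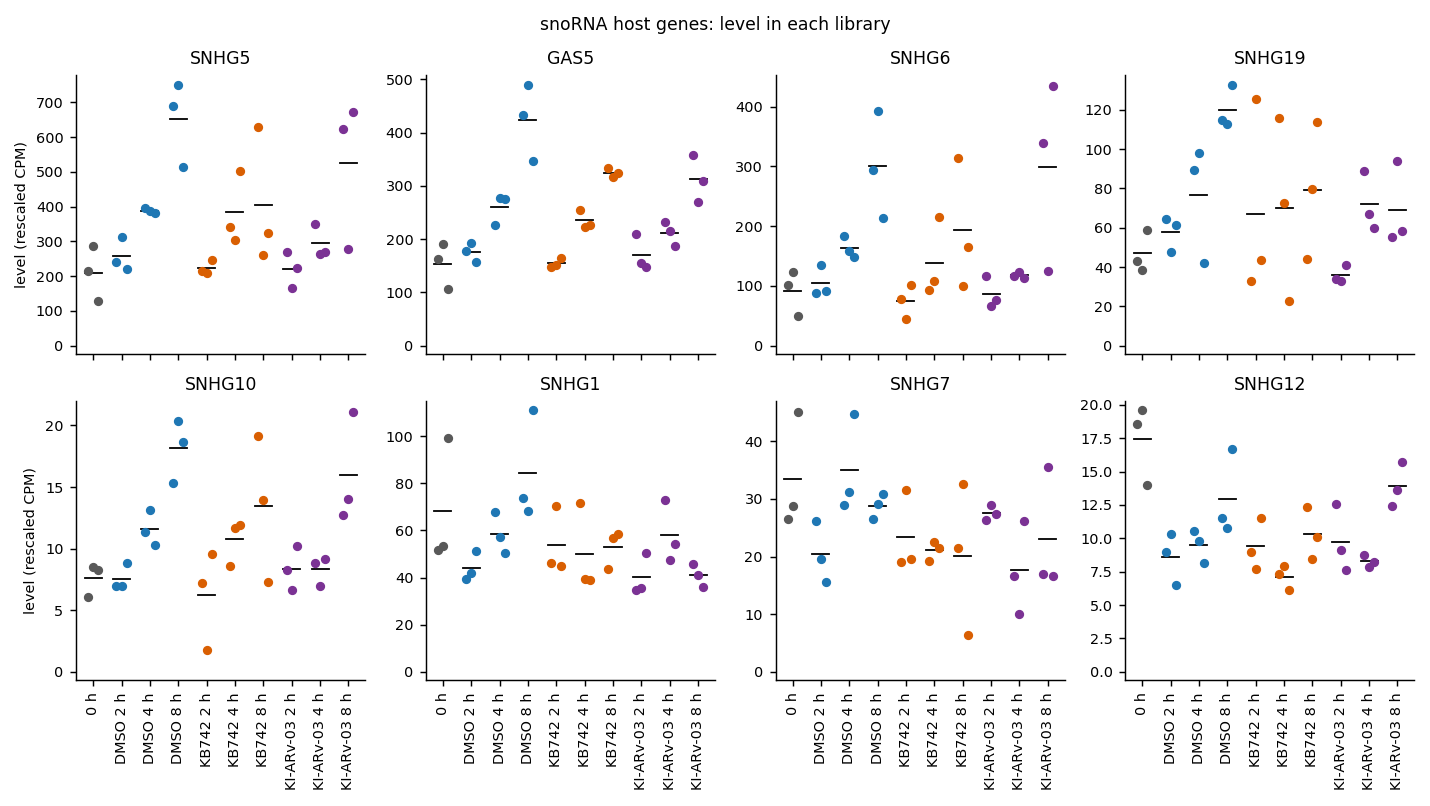
Level in rescaled CPM of the 8 snoRNA host genes in each library, grouped by treatment and time (points are libraries, lines group means, axes linear and separate for each gene). SNHG5, GAS5, SNHG6, SNHG19 and SNHG10 are higher in every DMSO 8 h library than in every 0 h library, while SNHG12 is lower in every DMSO 2 h and 4 h library than in every 0 h library. Of all genes tested, 27% lay above 0 h in this way at 8 h, and 14.7% and 22.2% below it at 2 h and 4 h.

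Less abundant hosts split. SNHG19 rose from 43.3, 38.6 and 58.9 to 115, 113 and 132 CPM at 8 h (1.36 ± 0.46, adjusted p = 0.016), a call lost without 0 h replicate 2 (adjusted p = 0.0928) or DMSO 8 h replicate 2 (adjusted p = 0.0512). SNHG10 rose from 6.08, 8.53 and 8.24 to 15.3, 20.4 and 18.7 (1.15 ± 0.36, adjusted p = 0.00888), a call lost without DMSO 8 h replicate 2 (adjusted p = 0.0506). SNHG12 moved the other way and early. It stood at 18.6, 19.6 and 14.0 CPM at 0 h and at 9.01, 10.4 and 6.49 after 2 h, with no overlap (-0.94 ± 0.25, adjusted p = 0.0208). The 4 h libraries were also all below 0 h, at 10.5, 9.82 and 8.14 (-0.80, adjusted p = 0.0192), and at 8 h the difference was -0.41 (adjusted p = 0.17). The 2 h call was lost without 0 h replicate 1 or 2 or DMSO 2 h replicate 1 or 3 (adjusted p = 0.087, 0.104, 0.0572 and 0.172), and the 4 h call without 0 h replicate 1 or 2 or DMSO 4 h replicate 3 (adjusted p = 0.0659, 0.0523 and 0.0723). SNHG1, with snoRNAs of the SNORD family in its introns, and SNHG7 were not called at 8 h, at 0.34 (adjusted p = 0.326) and -0.17 (adjusted p = 0.737). In all, 5 of 8 hosts were called higher and none lower at 8 h, with a median log2 difference of 1.26, against -0.08 over all genes tested.

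Among the antisense-named genes 13 of 35 were called higher and 2 lower at 8 h, with a median of 0.55. RNF207-AS1 had the largest rise of the set, from 2.19, 1.21 and 0 CPM to 7.15, 5.29 and 11.8 (2.18 ± 0.43, adjusted p = 0.00018), and no single library removed the call. At 4 h it stood at 4.65, 5.32 and 3.91 (1.55, adjusted p = 0.0106), which was lost without 0 h replicate 3 (1.04, adjusted p = 0.108). SCAMP1-AS1 rose from 2.92, 4.22 and 0.603 to 7.66, 5.45 and 11.8 (1.48 ± 0.40, adjusted p = 0.00347), lost without 0 h replicate 3 (0.92, adjusted p = 0.0564). At 0 h, both were lowest in the library that stands apart. EP300-AS1 rose with little spread, from 5.35, 4.82 and 4.72 to 8.50, 10.6 and 11.9 at 4 h and 13.8, 16.0 and 10.2 at 8 h (1.24 ± 0.22, adjusted p = 6.41e-05). IQCH-AS1 rose by 1.39 (adjusted p = 0.00081) and ZNF687-AS1 by 1.22 (adjusted p = 0.00315), again under each omission of 1 library. DGUOK-AS1 (adjusted p = 0.0498) lost its call without any of the 6 libraries compared (adjusted p = 0.0565 to 0.211). SLC25A5-AS1 (adjusted p = 0.0362) lost it without 0 h replicate 1 or 3 or DMSO 8 h replicate 2 or 3 (adjusted p = 0.0786, 0.156, 0.134 and 0.0855), and SAPCD1-AS1 (adjusted p = 0.03) without the same libraries (adjusted p = 0.0533, 0.142, 0.053 and 0.17). FGD5-AS1, the most abundant antisense-named gene, had 56.3, 62.9 and 56.2 CPM at 0 h and 71.5, 85.6 and 87.4 at 8 h and was not called (0.47, adjusted p = 0.131).

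At 4 h, members with few reads joined the called genes: SAPCD1-AS1 (1.32, adjusted p = 0.0195), LINC01315 (1.21, adjusted p = 0.0247), SCAMP1-AS1 (1.14, adjusted p = 0.041) and DCST1-AS1 (1.02, adjusted p = 0.0231) were higher than at 0 h. None of these 4 calls held without 0 h replicate 3, where the adjusted p was 0.0991, 0.192, 0.32 and 0.157. Other omissions also ended them: DMSO 4 h replicate 3 for SAPCD1-AS1 (0.0742), SCAMP1-AS1 (0.0807) and DCST1-AS1 (0.0814), replicate 1 for LINC01315 (0.0623), SCAMP1-AS1 (0.11) and DCST1-AS1 (0.0898), and replicate 2 for LINC01315 (0.0921) and SCAMP1-AS1 (0.0903). Without the 3 libraries that stand apart, 5 members in all were called at 4 h.

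The members called lower at 8 h were intergenic-named genes and a pair of antisense-named genes. LINC01004 had 12.5, 7.06 and 5.23 CPM at 0 h and 2.03, 1.29 and 2.10 already after 2 h, all below 0 h, then 2.43, 2.16 and 2.28 at 4 h and 2.55, 1.25 and 0.406 at 8 h. Its difference was -1.66 at 2 h (adjusted p = 0.0068) and -1.97 ± 0.37 at 8 h (adjusted p = 0.000118). The 2 h and 4 h calls were lost without 0 h replicate 1 (-1.34, adjusted p = 0.0641, and -1.10, adjusted p = 0.0577), and the 8 h call was not. The mean CPM of LINC01004, 2.29, was just above the limit of 2, and only 4 groups had a mean of at least 2. The 0 h libraries were its highest, and without them its mean would have been under that limit. Its fall from 0 h therefore follows in part from the choice of members and is only a description. LINC01234 fell more slowly, from 14.5, 12.3 and 10.3 to 6.97, 9.22 and 14.2 at 2 h, 4.65, 2.00 and 4.07 at 4 h and 1.53, 1.87 and 5.28 at 8 h. The 2 h libraries overlapped 0 h, and the later ones did not (8 h difference -1.89 ± 0.43, adjusted p = 0.00073). Without DMSO 4 h replicate 2 its 4 h call was lost (-1.30, adjusted p = 0.0597). NUTM2B-AS1 fell to 0.511, 2.18 and 2.03 from 5.84, 4.65 and 4.82 (-1.32, adjusted p = 0.00816), lost without DMSO 8 h replicate 1 (-0.97, adjusted p = 0.0715). KCNMB2-AS1 had a difference of -0.84 (adjusted p = 0.0483) that was lost without 0 h replicate 1 or 2 (adjusted p = 0.207 and 0.0662) or DMSO 8 h replicate 1 or 3 (adjusted p = 0.0547 and 0.234). Of the 10 intergenic-named genes 1 was called higher at 8 h, LINC01023 (1.22, adjusted p = 0.0138, lost without 0 h replicate 2, adjusted p = 0.0865, or DMSO 8 h replicate 3, adjusted p = 0.131), 2 were lower, and the median was 0.11. LINC01029 stayed within 12.6 to 31.4 CPM over all 30 libraries.

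**Figure D2:**
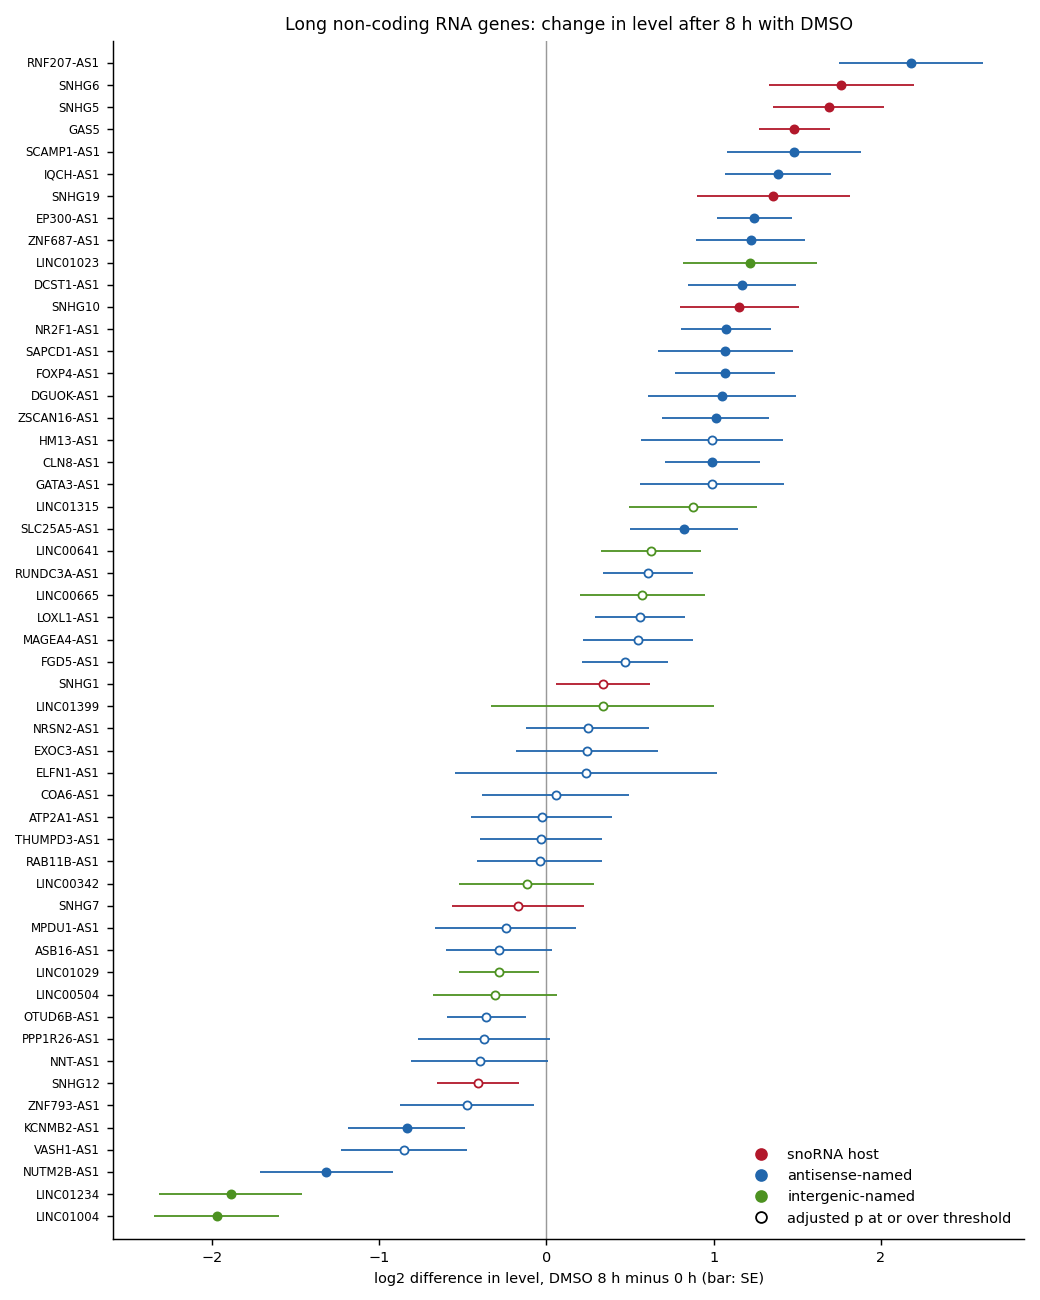
Log2 difference in level between DMSO 8 h and 0 h for all 53 members (points, with bars of 1 SE), ordered by size, coloured by name class and filled where the adjusted p was under 0.05. Hosts and antisense-named genes make up most of the upper part, RNF207-AS1 is highest at 2.18, and LINC01234 and LINC01004 are lowest at -1.89 and -1.97. LINC01004 is a member only through its 0 h libraries, which were its highest.

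The direction of these counts depends on the scaling. With the deposited scaling in place of TMM, the median of all genes moved by -0.64 at 8 h and by -0.42 at 4 h, and calls among the members became 1 higher and 12 lower at 8 h, in place of 19 and 4. RNF207-AS1 stayed called as higher (1.64), and LINC01004 (-2.46), LINC01234 (-2.54), NUTM2B-AS1 (-1.87) and KCNMB2-AS1 (-1.34) stayed lower. Of the hosts 0 were then called higher and 2 lower (SNHG12 and SNHG7), with a median of 0.49. Of the antisense-named genes 1 was higher and 7 lower (median -0.14), and of the intergenic-named genes 0 and 3 (median -0.45). SNHG5 at 0.89, GAS5 at 0.69 and SNHG6 at 0.97 kept their sign and lost their calls. At 4 h the split was 2 higher and 6 lower with the deposited scaling and 6 higher and 4 lower with DESeq2 size factors, which moved the median of all genes by -0.12. Relative to that median, the members' median was higher under both main and deposited scaling at 8 h: 0.55 against -0.08, and -0.07 against -0.73.

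Did the CDK9 inhibitors change the levels of these RNAs? After 8 h, levels of most hosts were lower than with DMSO in point estimate, but the libraries spread widely and limma called no host. With KB742, 0 members were called at 2, 4 and 8 h (0.0175%, 0.105% and 1.78% of all genes called, with 0.035% higher at 4 h), with 3, 5 and 9 members at an unadjusted p under 0.05. edgeR called 0 at each time, and DESeq2 called 1 at 4 h and 0 at 2 and 8 h. With KI-ARv-03, 0 members were called at 2 and 4 h (0.0262% and 0.0700% of all genes), with 0 and 4 members at an unadjusted p under 0.05 and 0 calls by edgeR and DESeq2. At 8 h 1 member was called, lower with KI-ARv-03 (2.43% of all genes called, 0.831% lower). Between the effect at 8 h and that at 2 h, 0 members differed for either compound (0.0175% of all genes for KB742 and 0.00875% for KI-ARv-03), with 5 and 4 at an unadjusted p under 0.05 and 0 by edgeR and DESeq2.

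The called member was SCAMP1-AS1, which stood at 2.35, 2.86 and 1.38 CPM with KI-ARv-03 for 8 h, all below the DMSO libraries at 7.66, 5.45 and 11.8 (-1.51 ± 0.40, adjusted p = 0.0381). The call was lost without DMSO 8 h replicate 1 or 3 (adjusted p = 0.0738 and 0.224) or KI-ARv-03 8 h replicate 1 or 3 (adjusted p = 0.0943 and 0.185), and edgeR gave an adjusted p of 0.0658. ASB16-AS1 came next, at 4.03, 4.29 and 2.42 CPM against 6.13, 8.72 and 13.4, again without overlap (-1.15, adjusted p = 0.0502). SNHG1 had 45.7, 41.3 and 36.1 CPM with KI-ARv-03 for 8 h against 73.8, 68.2 and 111 with DMSO, without overlap (-0.997 ± 0.28, adjusted p = 0.0557). With KB742 for 8 h, SNHG1 had 43.7, 56.8 and 58.6 CPM (-0.64, adjusted p = 0.31).

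SNHG5 in the 8 h compound groups stood at 628, 260 and 324 CPM with KB742 and 623, 279 and 673 with KI-ARv-03, beside 690, 749 and 514 with DMSO. Replicate 2 was the lowest of each compound group, also for SNHG6, at 99.9 of 313, 99.9 and 165 with KB742 and at 125 of 338, 125 and 434 with KI-ARv-03. The same libraries had the highest ELFN1-AS1, at 71.9 CPM beside 6.27 and 17.1 with KB742 and 65.1 beside 5.04 and 2.93 with KI-ARv-03. They also held the smallest shares of reads in members, 0.238% and 0.231%. Over all genes tested, the deviations of these replicates from their group means correlated at 0.68 between the compounds, against 0.39 for replicate 1 and -0.22 for replicate 3 (a correlation across genes, which are not independent). Whether these replicate differences share a source with the lower host levels was not tested. The difference of SNHG5 was -0.77 ± 0.33 with KB742 (adjusted p = 0.29) and -0.39 ± 0.33 with KI-ARv-03 (adjusted p = 0.57). GAS5 was steadier, at 334, 316 and 325 with KB742 and 358, 270 and 309 with KI-ARv-03, beside 433, 490 and 347 with DMSO (adjusted p = 0.47 and 0.302). The median over the 8 hosts was -0.67 with KB742 and -0.40 with KI-ARv-03, beside 0.01 and 0.03 for all genes. For all 53 members it was -0.29 and -0.20 at 8 h, with 39 and 42 below 0. With the deposited scaling, which moved the median of all genes by 0.24 and 0.22, the members' medians were -0.002 and 0.03, the hosts' -0.34 and -0.10 and all genes' 0.26 and 0.25. Of the 53 members 26 and 30 were then above 0, so the count of members below 0 depends on the scaling.

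How fast was each RNA labelled? The conversion level is the deposited measure of T-to-C conversion, in percent. It is not a share of reads, since the table does not hold its numerator and denominator, and it also depends on the T content of the reads, for which nothing was corrected. Values behind fewer than 20 reads were left out. The clearest labelling was in OTUD6B-AS1, transcribed beside the deubiquitinase gene OTUD6B. It had 2.48, 1.17 and 2.55% at 0 h, 7.97, 6.30 and 10.0% after 2 h with DMSO, 13.8, 21.1 and 21.3% after 4 h and 26.6, 32.7 and 29.1% after 8 h. Each time was above the one before it in all libraries. Against 0 h the limma adjusted p was 0.000249, 3.78e-11 and 1.22e-15 at 2, 4 and 8 h, and no alternative tried removed these calls. At 8 h OTUD6B-AS1 ranked 58 of 5288 genes with 3 values (top 1.10%). Its level meanwhile was 52.2, 55.5 and 37.7 CPM at 0 h and 32.2, 40.5 and 39.0 at 8 h, a difference that was not called (-0.36, adjusted p = 0.217).

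SNHG12 was already labelled after the pulse. At 0 h it had 10.6, 9.71 and 11.7%, rank 7 of 8969 genes (top 0.078%), and no other member reached 6% on average. LINC01004 followed at 5.57, 8.28 and 2.80% and THUMPD3-AS1 at 1.72, 3.94 and 5.36%. With DMSO SNHG12 had 9.75, 15.4 and 16.8% at 2 h, 16.6, 15.1 and 15.1% at 4 h and 9.00, 13.9 and 11.2% at 8 h. It thus held a high conversion level from the start and showed no steady climb, and it was not called against 0 h at any time. SNHG1 went from 3.82, 2.61 and 2.06% to 6.31, 5.27 and 8.45% at 4 h (adjusted p = 0.0042) and 3.82, 9.29 and 6.78% at 8 h (adjusted p = 0.00415, or 0.0641 without DMSO 8 h replicate 2).

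**Figure D3:**
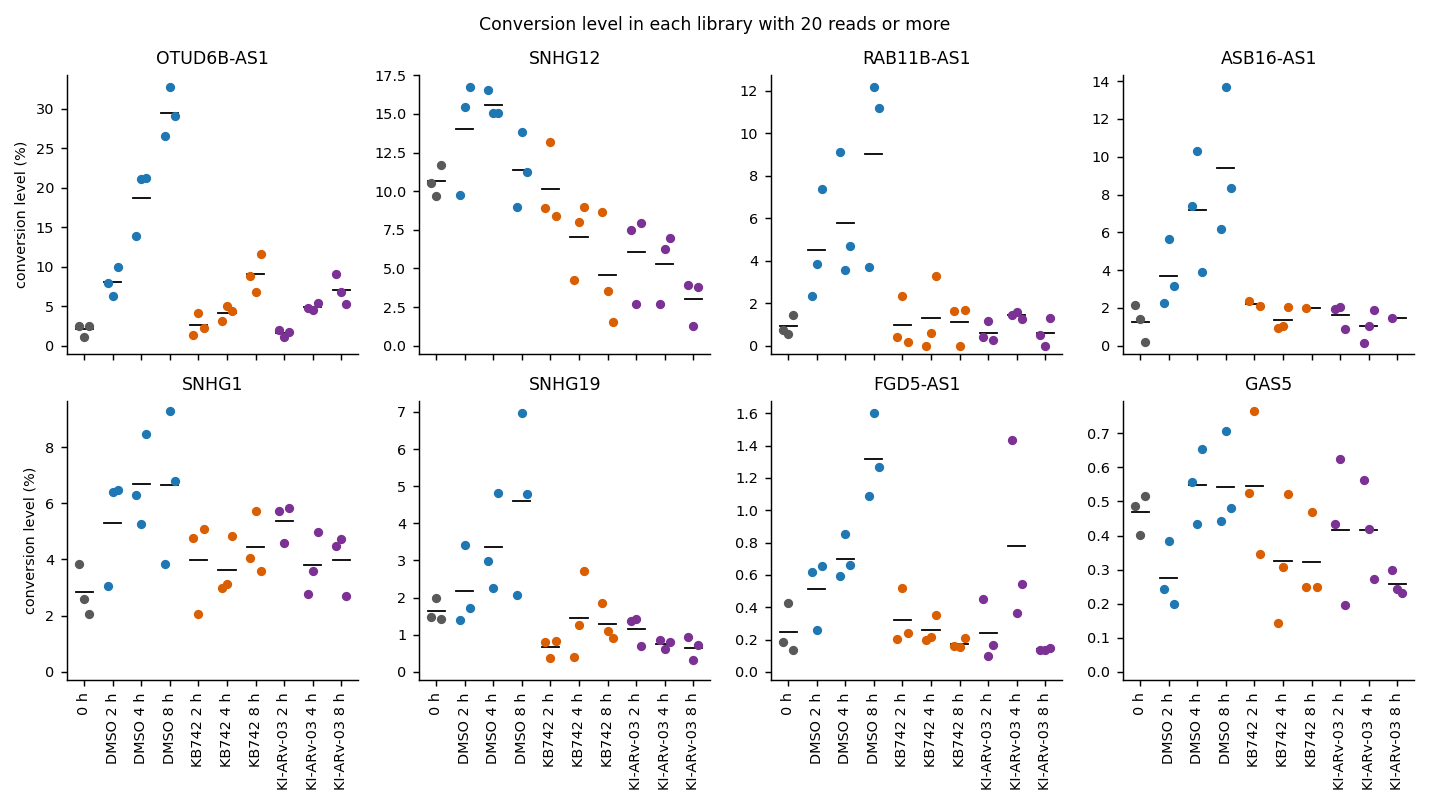
Conversion level in percent of 8 members in each library with 20 or more reads, grouped by treatment and time (points are libraries, lines group means, axes linear and separate for each gene). OTUD6B-AS1 climbs to 26.6 to 32.7% with DMSO at 8 h and stays at or below 11.6% with either compound, and SNHG12 has 9.71 to 11.7% already at 0 h.

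In counts, 2 of 29 members tested were more converted than at 0 h after 2 h with DMSO, 11 of 35 after 4 h and 11 of 29 after 8 h, and none less (9.07%, 34.9% and 42.9% of all genes called higher, 0.0481%, 0.0255% and 0.0463% lower, and 9.12%, 35% and 43% either way). The members' shares, 6.90%, 31.4% and 37.9%, lay near or below those. The median conversion level of the members with 3 values was 0.573% at 0 h and 1.37, 2.58 and 2.81% at 2, 4 and 8 h with DMSO, beside 0.271, 0.548, 0.799 and 0.766% over all genes. These medians cover 37, 23, 31 and 24 members and 8969, 7285, 7081 and 5288 genes, so they do not follow 1 set of genes over time. ASB16-AS1 rose from 2.18, 1.44 and 0.187% to 6.19, 13.7 and 8.33% at 8 h (adjusted p = 7.45e-05). RAB11B-AS1 rose from 0.743, 0.571 and 1.43% to 3.69, 12.1 and 11.2% (adjusted p = 0.000203), and FGD5-AS1 from 0.183, 0.427 and 0.138% to 1.08, 1.60 and 1.26% (adjusted p = 0.000279). All 3 were without overlap and kept their 8 h calls in each alternative tried. Of 22 members with 3 values in both groups, 9 (40.9%) lay above 0 h without overlap at 8 h, against 52.7% of all such genes. RUNDC3A-AS1 had 0.384, 0.815 and 0.109% at 0 h and 0.839, 4.41 and 4.24% at 8 h (adjusted p = 0.00426).

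LINC01234, whose level fell, rose in conversion from 0.144, 0.231 and 0% to 2.20, 3.84 and 2.27% at 2 h (adjusted p = 0.029) and to 4.43 and 10.3% at 4 h in the libraries with enough reads (adjusted p = 0.000152). The 2 h call was lost without any of the 0 h libraries (adjusted p = 0.0582, 0.0575 and 0.142) or DMSO 2 h replicate 2 or 3 (adjusted p = 0.116 and 0.0665). At 4 h ZNF793-AS1 (3.74 against 0.0597%, adjusted p = 0.00296) and NRSN2-AS1 (4.48 against 0.127%, adjusted p = 0.00555) were also higher. SNHG19 rose to 2.07, 6.97 and 4.78% at 8 h from 1.47, 1.98 and 1.44% (adjusted p = 0.00403, or 0.0751 without DMSO 8 h replicate 2). SNHG10 reached 0.801, 3.72 and 10.4% at 8 h from 0.575, 1.34 and 0.396%, with overlap (adjusted p = 0.0217, or 0.052, 0.0793 and 0.287 without 0 h replicate 1, 0 h replicate 3 or DMSO 8 h replicate 3). NR2F1-AS1 rested on DMSO 8 h replicate 3, at 7.26% beside 1.16 and 0.298% (adjusted p = 0.0253, or 0.388 without that library and 0.131 without 0 h replicate 3).

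With DMSO at 2, 4 and 8 h, GAS5, SNHG5 and SNHG6, the most abundant hosts, had the lowest mean conversion levels of the 8 hosts. GAS5 had 0.488, 0.402 and 0.516% at 0 h and 0.442, 0.707 and 0.481% after 8 h with DMSO, with overlap and no call at any time. SNHG5 had 0.367, 0.177 and 0.010% at 0 h and 0.304, 0.268 and 0.374% at 8 h, and SNHG6 0.721, 0.589 and 1.69% and 0.581, 0.615 and 1.10%, again with overlap and no call. These are the same genes whose levels rose about 3-fold over that time. EP300-AS1, also rising in level, was listed at 0% in all 3 libraries at 0 h and at 8 h with DMSO. Its highest value in any of the 30 libraries was 1.15%. Low conversion beside a rising level was not particular to these genes. Across 7081 genes, conversion at 4 h with DMSO and the level difference at 8 h had a Spearman correlation of -0.51. Across 31 members it was -0.32 (genes are not independent, and this was not tested).

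Did the inhibitors change conversion? With either compound OTUD6B-AS1, SNHG12, SNHG19, RAB11B-AS1 and FGD5-AS1 were less converted than with DMSO after 8 h. With KB742, 0 members were higher and 2 of 27, 11 of 30 and 12 of 25 were lower at 2, 4 and 8 h (0.976%, 17.7% and 34.7% of all genes lower, and 0.0131% higher at 4 h). With KI-ARv-03, 0 were higher and 1 of 28, 5 of 33 and 12 of 28 were lower (0.955%, 7.79% and 37.1% of all genes lower, and 7.84% called either way at 4 h). The shares of members lower were 7.41%, 36.7% and 48.0% with KB742 and 3.57%, 15.2% and 42.9% with KI-ARv-03. Among genes with 3 values in both groups, 30.0%, 60.9% and 47.1% of members lay below DMSO without overlap with KB742. Of all genes 19.3%, 43.9% and 48.9% did. With KI-ARv-03 it was 34.8%, 43.5% and 68.4% of members, against 21.9%, 13.2% and 53% of all genes. The KI-ARv-03 4 h group holds replicate 1, which stands apart with a mean conversion of 1.18% over all reads. Without the 3 libraries that stand apart, 8 members were lower in that comparison.

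OTUD6B-AS1 had 8.87, 6.80 and 11.6% with KB742 at 8 h and 9.06, 6.83 and 5.31% with KI-ARv-03, all below the 26.6 to 32.7% with DMSO (adjusted p = 6.39e-10 and 2.53e-11). At 2 h it had 1.36, 4.14 and 2.29% with KB742 (adjusted p = 0.00886, or 0.0898 without DMSO 2 h replicate 3) and 1.95, 1.10 and 1.74% with KI-ARv-03 (adjusted p = 0.00114), below all DMSO libraries at 6.30 to 10.0%. The 4 h values were 3.09, 4.998 and 4.41% with KB742 and 4.79, 4.57 and 5.42% with KI-ARv-03, against 13.8 to 21.3% (adjusted p = 6.09e-08 and 3.1e-07). The mean still rose with time under both compounds, over 2.60, 4.17 and 9.08% with KB742 and 1.60, 4.93 and 7.07% with KI-ARv-03. Libraries overlapped between 2 h and 4 h with KB742 and between 4 h and 8 h with KI-ARv-03. The change between times within a compound was not tested. OTUD6B-AS1 was the member called for a difference between the 8 h and the 2 h effect, with adjusted p = 0.0191 for KB742 and 0.014 for KI-ARv-03 on the arcsine square root scale, 1 of 23 and 1 of 24 members tested (4.92% and 5.54% of all genes, 4.90% and 5.52% lower). The KB742 call was lost without replicate 2 of DMSO 2 h, DMSO 8 h, KB742 2 h or KB742 8 h (adjusted p = 0.0631, 0.0716, 0.06 and 0.077), and that of KI-ARv-03 without DMSO 8 h replicate 2 (0.0533) or KI-ARv-03 8 h replicate 3 (0.0539).

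SNHG12, high at 0 h, had 8.66, 3.56 and 1.55% with KB742 at 8 h and 3.96, 1.29 and 3.79% with KI-ARv-03, all below DMSO at 9.00, 13.9 and 11.2% (adjusted p = 0.0057 and 0.000661). At 4 h it had 4.25, 7.97 and 8.97% with KB742 and 2.68, 6.23 and 6.96% with KI-ARv-03 against 15.1 to 16.6% (adjusted p = 0.0125 and 0.00296). All of these lay below the 0 h libraries of 9.71 to 11.7%. The KB742 calls were lost without KB742 4 h replicate 1 (adjusted p = 0.0957) and KB742 8 h replicate 3 (adjusted p = 0.0719). Its level with KI-ARv-03 at 8 h was 12.4, 13.6 and 15.7 CPM, beside 11.5, 10.7 and 16.7 with DMSO.

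SNHG19 had 1.85, 1.10 and 0.904% with KB742 and 0.927, 0.319 and 0.710% with KI-ARv-03 at 8 h, below 2.07, 6.97 and 4.78% with DMSO (adjusted p = 0.00124 and 3.28e-05). RAB11B-AS1 had 1.62, 0 and 1.69% and 0.495, 0 and 1.30% against 3.69, 12.1 and 11.2% (adjusted p = 0.000221 and 4.6e-05). FGD5-AS1 had 0.160, 0.153 and 0.210% and 0.138, 0.133 and 0.148% against 1.08, 1.60 and 1.26% (adjusted p = 0.000144 and 5.94e-05). None of these 8 h groups overlapped DMSO, as was common (48.9% of all genes with KB742 and 53% with KI-ARv-03). No omission of 1 library removed the calls. NNT-AS1 had 0.399, 0 and 0% with KB742 at 8 h against 2.46 and 2.87% (adjusted p = 0.00362), and 0.220, 0.858 and 0% with KI-ARv-03 (adjusted p = 0.0145, or 0.0796 without KI-ARv-03 8 h replicate 3). LINC01029, stable in level, had 0.032, 0 and 0.576% with KB742 (adjusted p = 0.00673, or 0.0563 without DMSO 8 h replicate 2) and 0.149, 0 and 0.068% with KI-ARv-03 (adjusted p = 0.00263) against 0.693, 2.38 and 1.51%. LINC01023 was listed at 0% in all 3 KI-ARv-03 8 h libraries, against 2.28, 2.40 and 5.14% (adjusted p = 0.00667).

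Among members called with a single compound at 8 h, SNHG5 (0.109, 0.169 and 0.043% with KB742, adjusted p = 0.043) lost its call without any of the DMSO 8 h libraries or KB742 8 h replicate 1 or 3 (adjusted p = 0.0625 to 0.18). SNHG6 (0.245, 0.200 and 0.207% with KI-ARv-03, adjusted p = 0.0251) lost it without DMSO 8 h replicate 3 (0.133) or KI-ARv-03 8 h replicate 2 (0.0655) or 3 (0.0628). THUMPD3-AS1 (1.44 against 7.08% with KB742, adjusted p = 0.0252, 2 values in each group) kept it where a value could be had. LINC00342 was lower with KI-ARv-03 at 8 h (0.683 against 3.97%, adjusted p = 0.00462) and with KB742 at 2 h (0.0853 against 4.07%, adjusted p = 0.0111, or 0.0721 and 0.0646 without DMSO 2 h replicate 3 or KB742 2 h replicate 2). It was also lower with KB742 at 4 h (0.170 against 2.36%, adjusted p = 0.0244, or 0.0816, 0.064 and 0.106 without DMSO 4 h replicate 3 or KB742 4 h replicate 1 or 2). LINC00342 was not called with KB742 at 8 h (0.931, 5.03 and 1.20%), where DMSO had 2 values, 4.21 and 3.74%. Nor was it called with KI-ARv-03 at 2 h (0.368, 0.890 and 0.439% against 4.18, 3.05 and 4.97%). At 4 h with KI-ARv-03 it was not lower (4.77, 2.74 and 2.49% against 2.01, 2.24 and 2.82%). ASB16-AS1 was lower at 4 h, with 0.952, 1.04 and 2.06% under KB742 and 0.167, 1.06 and 1.88% under KI-ARv-03 against 7.39, 10.3 and 3.91% (adjusted p = 0.0073 and 0.00425). At 8 h each compound left ASB16-AS1 with 1 library of 20 or more reads, so it was not tested there. The difference between the compounds was not tested. Also at 4 h, RAB11B-AS1 (1.30 against 5.78%, adjusted p = 0.0134) and DGUOK-AS1 (0.361 against 4.57%, adjusted p = 0.00828) were lower with KB742, the former not without DMSO 4 h replicate 1 (0.0905) or KB742 4 h replicate 1 (0.125). RUNDC3A-AS1 was lower with KB742 (0.497 against 4.28%, adjusted p = 0.00201) and with KI-ARv-03 (0.814%, adjusted p = 0.0123, or 0.0819 without DMSO 4 h replicate 1 and 0.0833 without KI-ARv-03 4 h replicate 2). SNHG19 was lower with KI-ARv-03 (0.760 against 3.35%, adjusted p = 0.00753, or 0.0854 without DMSO 4 h replicate 3) and with KB742 (1.46%, adjusted p = 0.0385, lost without DMSO 4 h replicate 1 or 3 or KB742 4 h replicate 1 or 2, at 0.0655, 0.214, 0.265 and 0.097). NNT-AS1 was lower with KB742 at 4 h as well (0.107 against 2.58%, adjusted p = 0.00762).

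How did antisense-named genes compare with the coding genes they are named for? Of the 28 pairs in which both were tested for level, 12 antisense-named members and 10 partners were called at 8 h with DMSO, 42.9% and 35.7%, below the 49.9% of all genes. Both were called in 4 pairs, a description that was not tested against other gene pairs. In EP300-AS1, NR2F1-AS1 and ZSCAN16-AS1 the member rose and the partner fell, and in DGUOK-AS1 both rose. These pairs were picked after their values were seen. EP300, a histone acetyltransferase, had 38.5, 42.7 and 22.1 CPM at 0 h, 15.3, 16.2 and 10.3 at 2 h, 6.88, 3.33 and 5.70 at 4 h and 1.53, 1.71 and 1.63 at 8 h. Every time was below the one before in all libraries (8 h difference -3.70, adjusted p = 2.65e-10), while the mean of EP300-AS1 rose from 4.97 to 13.3 CPM. EP300 had 3.39% conversion at 4 h on average, against 0.426% for EP300-AS1. EP300-AS1 with KB742 at 8 h stood at 13.9, 17.2 and 12.5 CPM and with KI-ARv-03 at 13.1, 13.4 and 12.3, overlapping DMSO.

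NR2F1, a nuclear receptor gene, fell from 49.7, 58.9 and 67.1 to 16.9, 21.2 and 20.7 CPM at 8 h (-1.53, adjusted p = 2.25e-06) with conversion up from 0.780 to 10.6% (adjusted p = 2.75e-10). NR2F1-AS1 rose over the same time from 4.98, 6.63 and 4.62 to 11.8, 15.3 and 10.6 CPM (1.07, adjusted p = 0.00179). ZSCAN16-AS1 rose from 3.16, 3.10 and 5.02 to 7.92, 7.78 and 9.75 (1.01, adjusted p = 0.0103, or 0.0727 without 0 h replicate 2), and ZSCAN16 fell (-1.09, adjusted p = 0.0112, or 0.0544 without DMSO 8 h replicate 1). With the deposited scaling the members of these 3 pairs kept a positive difference but lost their calls (EP300-AS1 0.54, NR2F1-AS1 0.37, ZSCAN16-AS1 0.33), and the partners stayed lower.

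OTUD6B-AS1 was above its partner in rescaled CPM in every library (reads at 3′ ends, not divided by length). OTUD6B had 9.97, 12.1 and 8.74 CPM at 0 h and 5.11, 4.98 and 2.03 at 8 h with DMSO (-1.22, adjusted p = 0.0213, or 0.0502 without 0 h replicate 2 and 0.134 without DMSO 8 h replicate 3). Its conversion also rose, from 0.548% to 8.11% (adjusted p = 0.00011), and was 0.945% with KB742 and 0.122% with KI-ARv-03 at 8 h (adjusted p = 0.00112 and 0.000101). Both genes of the pair were thus more converted with DMSO and less with the compounds, at different conversion levels.

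**Figure D4:**
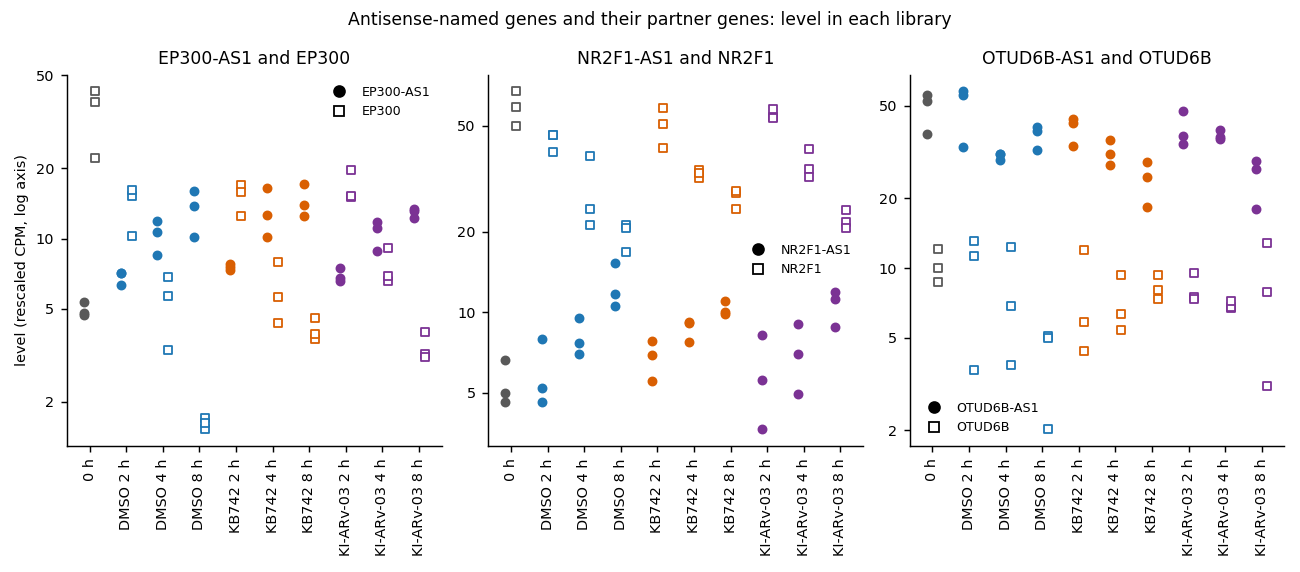
Level in rescaled CPM (log axis) of 3 antisense-named members (filled circles) and the coding genes they are named for (open squares) in each library, by treatment and time. EP300 falls from 22.1 to 42.7 CPM at 0 h to 1.53 to 1.71 with DMSO at 8 h while EP300-AS1 rises, and OTUD6B-AS1 lies above OTUD6B throughout.

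Genes that act on these RNAs were read as counts from lists, beside the 21.4% of all genes called higher and 28.5% called lower at 8 h with DMSO. Of 16 snoRNP core and assembly genes, which package the snoRNAs, 5 were higher and 3 lower in level at 8 h with DMSO, with a median of 0.00 beside -0.08 for all genes. Of 13 nonsense-mediated decay factors 1 was higher and 4 were lower (median -0.43). Of 18 genes of the nuclear exosome and its adaptors, which degrade unstable nuclear RNA, 3 were higher and 10 lower (median -1.01). Of 13 paraspeckle protein genes 4 were higher and 2 lower (median 0.31). These splits also depend on the scaling: with the deposited one the counts higher and lower were 1 and 8 (snoRNP), 0 and 7 (decay), 0 and 12 (exosome) and 0 and 2 (paraspeckle), with medians of -0.78, -1.20, -1.56 and -0.46 beside -0.73 for all genes. With either compound at 8 h, none of the snoRNP, decay or paraspeckle genes was called by limma, and of the exosome genes C1D and EXOSC9 were higher with both (KB742: 1.21% of all genes called higher, KI-ARv-03: 1.60%). With DESeq2 size factors 1 of them was called with KB742.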

How the data were processed

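SLAM-seq libraries of 3′ ends were made from 30 samples of 22Rv1 cells in 10 groups of 3. The authors deposited a table of 85618 rows of RefSeq transcripts, with hg19 named in the submitters' processing notes. No source used here names the aligner or the conversion caller. The unit of the deposited CPM columns is a signal: the authors scaled reads to a common library total, and library sums were 0.84 to 1.38 times that total. The deposited conversion columns are a fraction made by the authors, with no numerator or denominator in the table. All values above 0 were whole multiples of a library's step (100% within 0.05), from which whole reads were recovered. Columns of unknown samples numbered 0. Reads without a gene name, 0.478%, were left out.

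Each gene was read from its row with the most reads (summing the rows of a transcript gives 55 members). Of 42 members with a known exon count, 39 had as many rows as exons, so values are those of 1 row and not of the whole transcript. That row held over 90% of the transcript's reads in 47 members, but 74.3% for SNHG6 and 57.4% for VASH1-AS1. Levels were tested as log2(CPM + 1) after TMM scaling (edgeR 4.0.16) with limma 3.58.1 in R 4.3.3, over 11430 genes passing filterByExpr with a minimum count of 10. The median half-width of a 95% interval was 0.733 (log2). For conversion, limma was fitted to the arcsine-transformed square root, with at least 20 reads per value and 2 values per group. All 30 libraries entered each fit, and p-values were Benjamini-Hochberg adjusted over all genes. As alternatives, edgeR's quasi-likelihood test and DESeq2 1.42.0 were run on the recovered reads; at DMSO 8 h edgeR called 2369 genes higher and 3083 lower. The planned limma test fitted the unit found. The fits were tested on simulated data. Figures were drawn with matplotlib 3.10.9.

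Members and gene lists were chosen with earlier results of these data known. Named were GAS5 and all SNHG members, the 10 most abundant members, up to 5 called members per comparison and direction, and the genes next to the CPM limit.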

Additional observations from a re-analysis of the deposited data

Results flagged for a closer look

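OTUD6B-AS1 stood out because the gap in conversion level between each compound and DMSO widened between 2 h and 8 h, by a test of that difference on the arcsine square root scale. The difference between compound and DMSO was lower at 8 h than at 2 h by -14.9 percentage points with KB742 (limma adjusted p = 0.0191) and by -15.9 percentage points with KI-ARv-03 (adjusted p = 0.014). Both tests use the same DMSO libraries, in which conversion rose from 6.30 to 10.0% at 2 h to 26.6 to 32.7% at 8 h. As a ratio to the DMSO mean, the mean of the compound group was 0.32 with KB742 and 0.197 with KI-ARv-03 at 2 h, and 0.308 and 0.24 at 8 h. Relative to DMSO, the effect was thus similar at both times with KB742 and no larger at 8 h with KI-ARv-03. The ratios were not tested.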

How the results depend on the processing

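No called difference of a member or a partner changed sign under any alternative. The members' medians did with the deposited scaling: with DMSO -0.06 in place of 0.07 at 2 h and -0.07 in place of 0.55 at 8 h, at 8 h with KI-ARv-03 0.03 in place of -0.20, and for the 8 h against 2 h effect 0.11 in place of -0.31 with KB742 and 0.02 in place of -0.24 with KI-ARv-03. For levels, the count of members called at 2 h with DMSO (2) was 1 with edgeR and 0 with a pseudocount of 0.25 or with the compared groups only. At 4 h it was 5 in place of 12 when the 3 libraries standing apart were omitted, and it was 13 in place of 23 at 8 h with the deposited scaling. With KB742 at 4 h it was 1 with DESeq2 in place of 0. With KI-ARv-03 at 8 h (1) it was 2 with DESeq2 size factors, 3 with DESeq2 or a pseudocount of 0.25, 4 when the libraries standing apart were omitted, and 0 with the deposited scaling, edgeR, no filter or the compared groups only. For conversion with DMSO, the count at 2 h (2) was 4 with the compared groups only and 1 with a minimum of 10 reads or with the libraries standing apart omitted. At 4 h (11) it was 7 with a minimum of 50 reads, and at 8 h (11) it was 7 with a minimum of 50 reads or without those libraries and 17 with a minimum of 10 reads. With a minimum of 50 reads KB742 gave 1 at 2 h (2) and 7 at 8 h (12), and KI-ARv-03 gave 7 at 8 h (12). With KI-ARv-03 at 2 h (1) the count was 5 with the compared groups only and 3 with the libraries standing apart omitted, at 4 h (5) it was 8, and for its 8 h against 2 h effect (1) it was 2. Causes were not tested. Leaving out each library in turn gave level counts of 0 to 2, 6 to 10 and 17 to 21 for DMSO at 2, 4 and 8 h, 0 to 3 for KI-ARv-03 at 8 h and 0 elsewhere. The conversion counts were 1 to 4, 7 to 13 and 7 to 12 for DMSO, 0 to 2, 5 to 10 and 6 to 11 for KB742, 1 to 2, 4 to 8 and 9 to 13 for KI-ARv-03, and 0 to 3 and 0 to 2 for the 8 h against 2 h effects of KB742 and KI-ARv-03. Replicate numbers did not pair all 3 libraries of any 2 groups: of 36 correlations of same-numbered libraries in groups of DMSO and 0 h, compound and DMSO, or both compounds at a time, 12 were over 0.1, from -0.42 to 0.68, and no group pair had all 3 over 0.1. That does not test for a source shared by single same-numbered libraries, such as replicates 1 and 2 of both compounds at 8 h (0.39 and 0.68). With the replicate number as a block, the level count at 8 h with DMSO was 24, and the 4 h conversion counts were 8 with KB742 and 7 with KI-ARv-03. The alternatives that omit those libraries or sum rows were chosen after seeing the data.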
